A study of Homo sapiens with 6 samples.

Results

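The genes described here are 10 classic targets of heat shock factor 1 (HSF1), taken from a table of 61806 human genes by symbol: HSPH1, CHORDC1, HSPA1A, HSPA1B, HSPA8, HSP90AA1, HSP90AB1, DNAJB1, HSPD1 and HSPE1. They were chosen by the log2 fold changes and calls of GFP-812 against GFP in these same libraries, so that difference is given for them as a description. Whether the fit over all genes called a gene is part of that description and supports nothing about it. The samples are 6 poly(A) RNA-seq libraries of the human embryonic kidney line 293T. Cells of 3 libraries received a plasmid labelled GFP (green fluorescent protein) with a lipid reagent, and cells of the other 3 received a plasmid labelled GFP-812. All were grown at 37 °C, with no heat shock named in the labels, and the series title concerns truncated NEK1 and ribosomal RNA biogenesis. The meaning of the number in that label is not given. The labels name no time after transfection and do not say whether the replicates of a group were separate cultures, so that the spread between them may be technical.

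HSF1 is a transcription factor that chaperones hold inactive in unstressed cells. When unfolded proteins draw those chaperones away, HSF1 forms trimers, binds repeats of the letters GAA in alternating orientation (heat shock elements) and raises transcription of chaperone genes. HSP70 proteins bind unfolded stretches of client proteins with help from J-domain partners and nucleotide exchange factors, HSP90 proteins mature kinases and other clients with help from co-chaperones, and the HSP60 and HSP10 chaperonin folds proteins inside mitochondria.

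Where 3 values of a group are given, they are those of replicates 1, 2 and 3 in that order. Total counts were 14255148 to 17613814 per library. NEK1, the gene of the title, was at 494 to 563 FPKM (counts scaled by exonic length and library total) in GFP-812 libraries and at 3.82 to 3.99 FPKM in GFP libraries. Over 16834 genes tested with edgeR, 449 were called lower in GFP-812 cells (2.67%) and 198 higher (1.18%) at an adjusted p under 0.05. With upper-quartile scaling the split was 339 lower and 280 higher. These counts rest on single libraries: 810 lower and 507 higher when GFP replicate 3 was left out, 185 and 78 with GFP replicate 1 removed, 305 and 109 with GFP replicate 2 removed, 147 and 62 with GFP-812 replicate 2 removed, and 208 and 84 with GFP-812 replicate 3 removed. The 3 GFP-812 libraries lay entirely below the 3 GFP libraries in 12.1% of genes tested, and entirely above in 7.93%. Of 6 epithelial markers 2 reached a mean of 1 FPKM, KRT8 and KRT18, while EPCAM and CDH1 did not. Of 10 kidney epithelium markers 2 did, LHX1 and LRP2, and UMOD was at 0. The neuronal genes known from this line were present at a summed 235 to 251 FPKM in GFP-812 and 219 to 241 in GFP libraries, and the blood cell genes PTPRC and HBB were at 0.

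HSPH1 and CHORDC1 were lower in GFP-812 cells, and the other 8 chaperone genes were not called in either direction. All 10 passed the filter on low counts, none of them only through 1 group. The 2 of 10 called lower were read beside 2.67% of all genes, and the 0 of 10 called higher beside 1.18%. Since these calls took part in choosing the genes, nothing is drawn from the excess. The 10 genes had a median log2 fold change of -0.04, beside 0.0069 for all genes tested and -0.0066 for the 7007 genes at a mean of 5 FPKM or more. The groups did not overlap, with GFP-812 below GFP, in 3 of the 10 (HSPH1, CHORDC1 and HSP90AA1), beside 12.1% of all genes tested. GFP-812 lay above GFP without overlap in 0 of the 10, beside 7.93% of all genes. Nothing is drawn from these counts either.

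HSPH1 (ENSG00000120694, hg38 chr13:31134973-31162388, minus strand) encodes HSP105, a large relative of HSP70 that acts as its nucleotide exchange factor and holds unfolded proteins in solution. Its level was 32.5, 34.7 and 33.8 FPKM in the GFP-812 libraries, and 40.5, 40.4 and 38.5 FPKM in the GFP libraries. Every GFP-812 library lay below every GFP library. The means were 33.6 ± 1.13 FPKM (SD, n = 3) and 39.8 ± 1.14 FPKM (SD, n = 3), a log2 fold change of -0.23 (SE 0.0400, 95% interval -0.31 to -0.15).

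CHORDC1 (ENSG00000110172, hg38 chr11:90200429-90223077, minus strand) encodes a zinc-binding protein, also called morgana, that works with HSP90 as a co-chaperone. Its level was 17.8, 17.3 and 17.4 FPKM in the GFP-812 libraries, and 21.3, 20.7 and 20.9 FPKM in the GFP libraries. These groups did not overlap either, and each spanned less than 1 FPKM. The means were 17.5 ± 0.265 and 20.95 ± 0.308 FPKM (SD, n = 3 each), a log2 fold change of -0.25 (SE 0.0414, 95% interval -0.33 to -0.16). Expressed in percent, the fitted level was 14.7% lower for HSPH1 and 15.8% lower for CHORDC1. Among the 449 genes called lower the median log2 fold change was -0.23, and 227 of them had a larger fall than HSPH1 and 190 a larger fall than CHORDC1. Neither gene therefore stood at the end of the list by size. Limma on log2 FPKM, which called 1 to 20 genes lower in all, called neither gene.

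**Figure D1:**
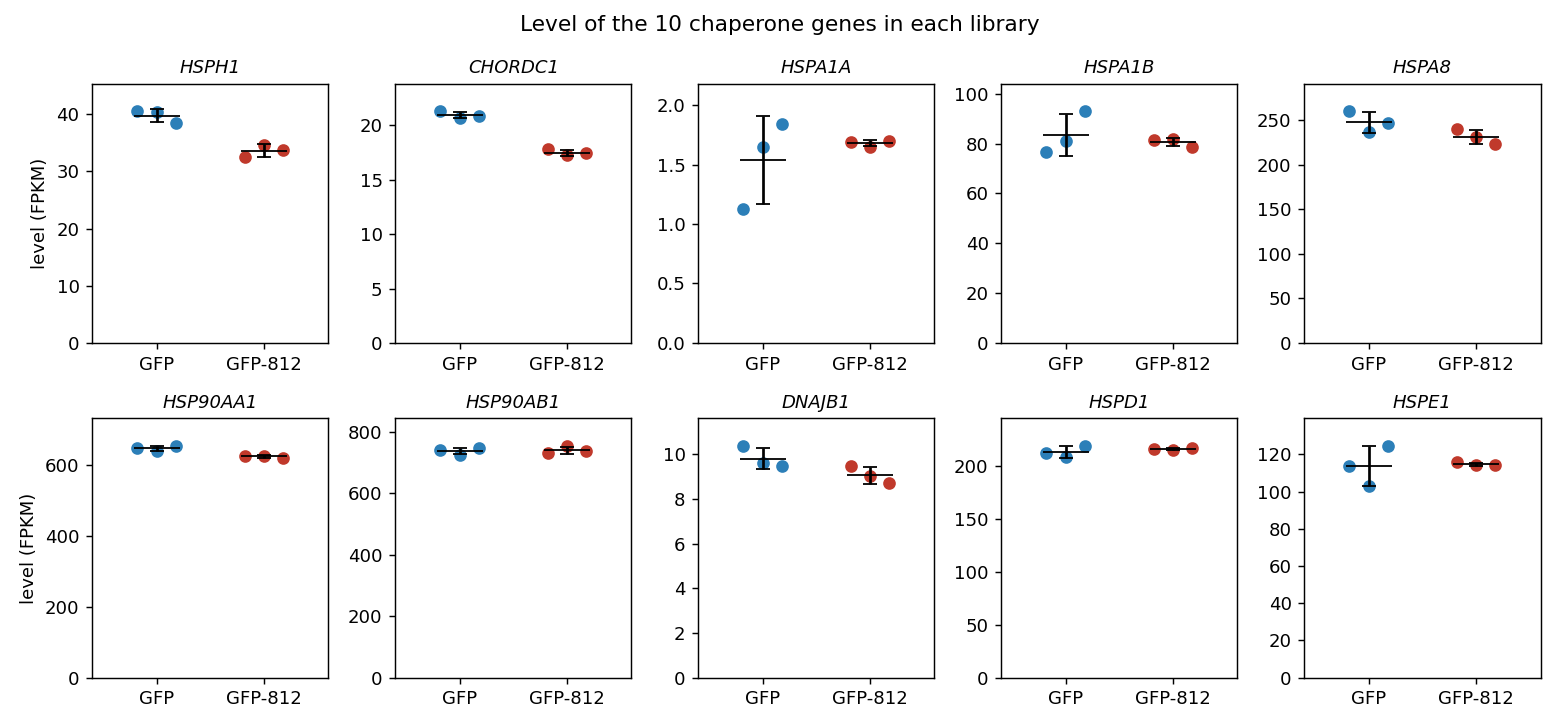
Level of each of the 10 chaperone genes in FPKM (vertical axes, linear from 0, each gene with its own scale) in the 3 GFP and 3 GFP-812 libraries. Points are libraries, horizontal lines are means and bars are SD (n = 3). HSPH1 and CHORDC1 show separate groups of points at 33.6 against 39.8 FPKM and 17.5 against 20.95 FPKM, and HSPA1A, HSPA1B and HSPE1 show a wide spread in GFP libraries.

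The promoters of the 2 genes differed in the letters HSF1 is known to bind. RefSeq promoter windows (GRCh38.p14, 250 bases before to 50 after each annotated start) were matched for all 10 genes, with 16 windows in all. A heat shock element of 2 units was taken as GAANNTTC or TTCNNGAA, and one of 3 units as either of these with the next inverted unit after 2 free letters, both strands being read. The 3-unit form contains the 2-unit form. Positions are counted from the annotated start, -1 being the last base before it. CHORDC1 and HSPH1 are shown here because they had the lower levels, with element letters in capitals.
CHORDC1, chr11:90223084-90223112, minus strand, -63 to -35 from the start: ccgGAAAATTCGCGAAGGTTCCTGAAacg
CHORDC1, chr11:90223054-90223083, minus strand, -34 to -5: caacggatcgtTTCCGGAAgccggtagccg
HSPH1, chr13:31162389-31162463, minus strand, -75 to -1: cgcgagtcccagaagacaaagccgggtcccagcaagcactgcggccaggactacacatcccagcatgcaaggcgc
The first CHORDC1 stretch holds 5 units in a row. Some GENCODE v29 transcripts of the gene start upstream of it, so that it lies in an exon of those. The second CHORDC1 stretch overlaps a v29 exon of the gene as well. Another CHORDC1 element of 2 units, at -205 to -198, is not shown. The HSPH1 window held no element of either form by these letters, which says only that they are not in this window. Of the 9 annotated HSPH1 transcripts, 2 start within 50 bases of the RefSeq start, and of the 11 CHORDC1 transcripts 8 do.

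Heat shock elements were also in the windows of 7 of the 8 chaperone genes that were not called. A 2-unit element was in at least 1 window of 8 of the 10 genes, beside 16.2% of the 27305 genes in the RefSeq table. A 3-unit element was in 5 of the 10, beside 0.608% of genes. Those 5 were CHORDC1, HSPA8, HSP90AA1, HSP90AB1 and HSPD1. The genes were named as classic targets of HSF1, so the frequency of its element among them is a description. One stretch from each of 6 uncalled genes is shown to set beside CHORDC1, again with element letters in capitals.
HSPA1A, chr6:31815426-31815455, plus strand, -117 to -88: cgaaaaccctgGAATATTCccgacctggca
HSPA8, chr11:123062171-123062199, minus strand, -63 to -35: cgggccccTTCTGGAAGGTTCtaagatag
HSP90AA1, chr14:102087104-102087133, minus strand, -89 to -60: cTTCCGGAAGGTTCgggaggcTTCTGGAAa
HSP90AB1, chr6:44247823-44247851, plus strand, -120 to -92: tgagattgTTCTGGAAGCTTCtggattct
DNAJB1, chr19:14518456-14518485, minus strand, -88 to -59: cgggcggggcgGAAGGTTCtggagggggct
HSPD1, chr2:197500062-197500090, minus strand, -250 to -222: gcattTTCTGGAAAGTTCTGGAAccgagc
For HSP90AA1, HSP90AB1, DNAJB1 and HSPD1 the stretch belongs to one of several annotated starts, and the files do not tell which start was used in these cells. Within 50 bases of the start concerned begin 2 of the 10 v29 transcripts of HSP90AA1, 0 of the 4 of HSP90AB1, 1 of the 11 of DNAJB1 and 6 of the 14 of HSPD1. The other 2 windows of HSP90AB1 held no element. The HSPA8 and HSP90AA1 stretches shown overlap v29 exons of their own genes. The element of HSPA1B had the same 8 letters as that of HSPA1A, and HSPE1 held none in its window. The HSPD1 stretch lies outside that window, between the HSPD1 start concerned and the HSPE1 start. It overlaps v29 exons of both genes, and whether it acts on HSPE1 was not tested. The letters TATAAA were in the windows of HSPA1A and HSPA1B, beside 14.0% of genes. By these exact letters and windows, CHORDC1 and 7 uncalled genes held an element, and HSPH1 and HSPE1 held none. Imperfect units were not searched, and whether the elements bear on the levels was not tested.

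**Figure D2:**
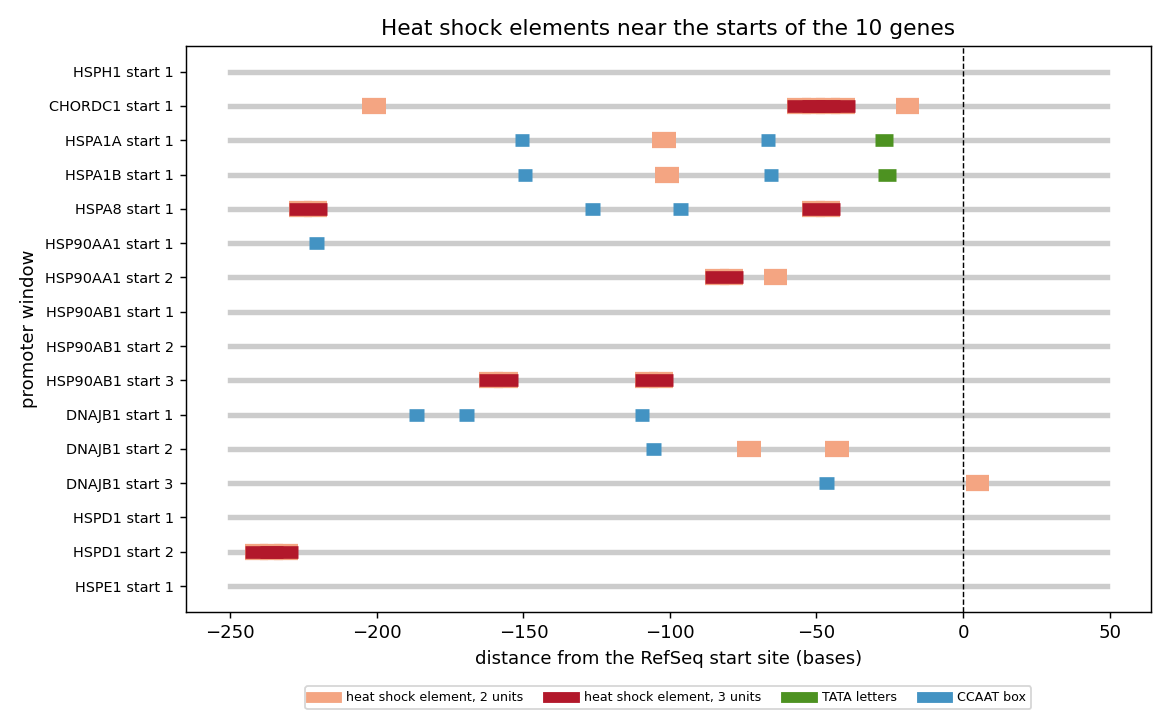
Positions of matched letters in the RefSeq promoter windows of the 10 chaperone genes, in bases from each annotated start (horizontal axis), with 1 line per window. Marks show heat shock elements of 2 and 3 units, TATAAA and CCAAT; CHORDC1 has its 3-unit matches between -60 and -38, and the HSPH1 window has no mark.

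The HSP70 genes showed no called difference, and their partner DNAJB1 also had none. HSPA8 (ENSG00000109971, hg38 chr11:123057489-123063230, minus strand) encodes the constitutive HSP70. It was at 239.9, 231 and 224 FPKM in the GFP-812 libraries, and at 260.1, 237 and 247 FPKM in the GFP libraries. The groups overlapped, since GFP replicate 2 lay below GFP-812 replicate 1, and the log2 fold change was -0.09 (SE 0.0365). HSPA8 was called lower when GFP replicate 2 was left out, with a log2 fold change of -0.12.

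DNAJB1 (ENSG00000132002, hg38 chr19:14514769-14560391, minus strand) is a J-domain protein that delivers clients to HSP70 and starts its ATPase cycle. It was at 9.48, 9.02 and 8.71 FPKM in the GFP-812 libraries and at 10.4, 9.61 and 9.47 FPKM in the GFP libraries. The highest GFP-812 library and the lowest GFP library were nearly level, and the log2 fold change was -0.10 (SE 0.0559). HSPA8 and DNAJB1 were thus below 0 by less than HSPH1, and neither was called.

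HSPA1A and HSPA1B are neighbouring genes on chromosome 6 (ENSG00000204389, hg38 chr6:31815543-31817946, and ENSG00000204388, chr6:31827738-31830254, both plus strand) that encode nearly the same inducible HSP70. HSPA1A was at 1.69, 1.65 and 1.70 FPKM in the GFP-812 libraries and at 1.13, 1.65 and 1.84 FPKM in the GFP libraries, from 44 to 72 counts per library. HSPA1B was at 81.3, 81.8 and 78.6 FPKM in the GFP-812 libraries and at 76.4, 80.9 and 92.9 FPKM in the GFP libraries. For both genes the GFP libraries spread around the GFP-812 ones. The log2 fold changes were 0.14 (SE 0.211) for HSPA1A and -0.04 (SE 0.0472) for HSPA1B.

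The split between these 2 genes is uncertain. HSPA1A took 1.40% to 2.02% of the counts of the pair, while 71.3% of the 50-base windows of its v29 transcripts also occur in HSPA1B. How reads that match both were counted is not given in the sources used here. The exons of HSPA1B also overlap those of AL671762.1 on the same strand over 36.5% of their length. Their sum, mostly HSPA1B, was small beside HSPA8, which took 84.2% to 84.8% of the counts of the 3 HSP70 genes in GFP-812 libraries and 83.4% to 86.6% in GFP libraries.

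The HSP90 genes were the most abundant of the 10 and were not called. HSP90AA1 (ENSG00000080824, hg38 chr14:102080742-102139699, minus strand), the stress-inducible HSP90, was at 626, 626 and 619.99 FPKM in the GFP-812 libraries and at 648, 639.96 and 653 FPKM in the GFP libraries. Its groups did not overlap, yet the means of 624 ± 3.54 and 647 ± 6.49 FPKM (SD, n = 3 each) were close, with a log2 fold change of -0.04 (SE 0.0314). HSP90AB1 (ENSG00000096384, hg38 chr6:44246166-44253888, plus strand), the constitutive HSP90, was at 732, 754 and 738 FPKM in the GFP-812 libraries and at 741, 727 and 747 FPKM in the GFP libraries. The HSP90AB1 libraries of both groups were intermixed, with a log2 fold change of 0.02 (SE 0.0325). HSP90AA1 took 59.4%, 58.7% and 59.0% of the counts of the pair in the GFP-812 libraries and 59.9%, 60.1% and 59.9% in the GFP libraries, with 95% Clopper-Pearson intervals at most 0.4 percentage points to either side that cover counting error only.

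The mitochondrial chaperonin genes HSPD1 (HSP60) and HSPE1 (HSP10) lie on opposite strands of chromosome 2 (ENSG00000144381, hg38 chr2:197486584-197516737, minus strand, and ENSG00000115541, chr2:197500140-197503449, plus strand). The annotated span of HSPE1 lies within that of HSPD1, which also overlaps MOB4 on the plus strand. HSPD1 was at 215, 215 and 217 FPKM in the GFP-812 libraries and at 212, 208 and 218 FPKM in the GFP libraries. HSPE1 was at 116, 114 and 115 FPKM in the GFP-812 libraries and at 114, 103 and 124 FPKM in the GFP libraries. Both genes had GFP libraries on either side of all the GFP-812 libraries. The log2 fold changes were 0.03 (SE 0.0333) for HSPD1 and 0.03 (SE 0.0465) for HSPE1. HSPD1 and HSPE1 exons overlap each other on opposite strands over 281 bases, and whether the counting used strand is not given in the sources used here. The pseudogene HSPE1P2 held 1.65% as many counts as HSPE1, with a log2 fold change of 0.20 that was not called.

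**Figure D3:**
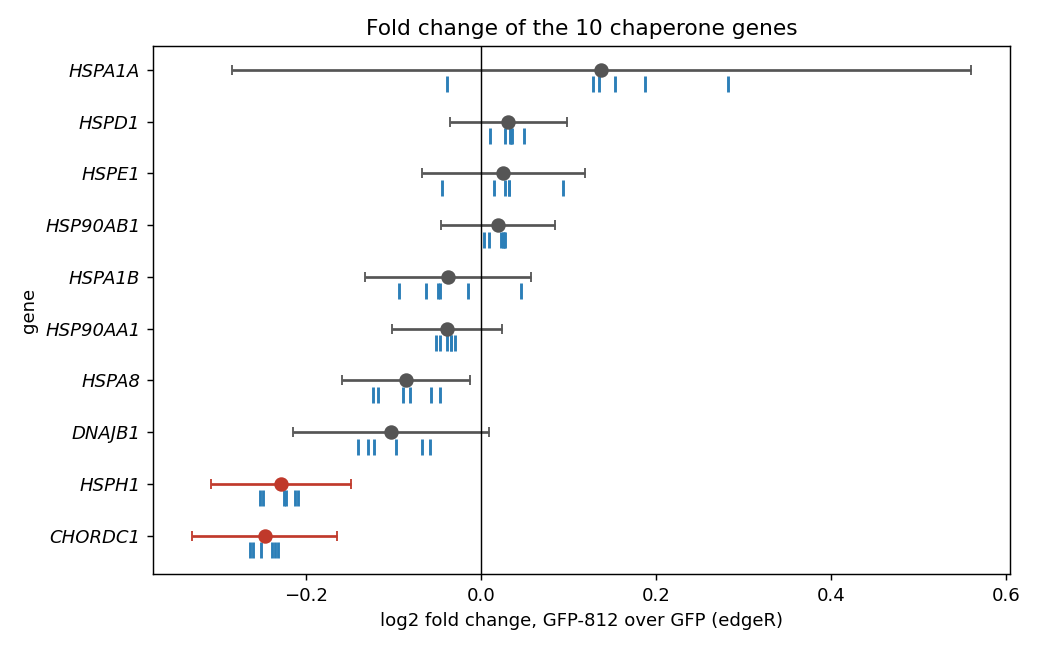
Log2 fold change of GFP-812 over GFP from edgeR (horizontal axis) for the 10 chaperone genes, with 95% intervals as bars. HSPH1 at -0.23 and CHORDC1 at -0.25 have the lowest point estimates, their intervals overlap those of some other genes such as DNAJB1, and HSPA1A has the widest interval.

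The order of levels per exonic length was the same in all 6 libraries. From the highest it ran HSP90AB1, HSP90AA1, HSPA8, HSPD1, HSPE1, HSPA1B, HSPH1, CHORDC1, DNAJB1 and HSPA1A, and the ranges of neighbours over the 6 libraries did not overlap. The 10 genes together took 0.915%, 0.917% and 0.906% of all counts in the GFP-812 libraries, and 0.946%, 0.920% and 0.952% in the GFP libraries.

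Within a group, the libraries differed most for HSPA1A, HSPA1B and HSPE1 among GFP libraries. The SD of log2 CPM over the 3 GFP libraries was 0.348 for HSPA1A, 0.142 for HSPA1B and 0.138 for HSPE1, beside a median of 0.113 over all genes tested and 0.0686 over genes at a mean of 5 FPKM or more, a level that HSPA1A did not reach. Over GFP-812 libraries the SD of the same genes was 0.0200, 0.0346 and 0.0114, beside medians of 0.0999 and 0.0520. GFP replicate 3 was the highest GFP library for each of these 3 genes. HSPH1 and CHORDC1 had SDs of 0.0433 and 0.0281 in GFP libraries and 0.0485 and 0.0230 in GFP-812 libraries, so their spread lay below both medians in each group.

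The pattern of each gene over the 6 libraries was set beside those of 6602 other protein-coding genes at a mean of 5 FPKM or more, by the root mean square difference of log2 CPM centred on the gene's own mean. The nearest to HSPH1 was ATAD2, a chromatin ATPase, at a difference of 0.0210, followed by OBI1, ZNF592, AEBP2 and CCNL1 at up to 0.0245. The nearest to CHORDC1 was TUT7, which adds uridines to RNA ends, at 0.00463, followed by PPRC1, RANGAP1, E2F8 and NFX1 at up to 0.0247. The median difference over all candidates was 0.130 for HSPH1 and 0.135 for CHORDC1. HSPH1 and CHORDC1 differed from each other by 0.0480, so each had nearer neighbours outside the 10 than the other. The difference between the groups enters this measure, and nothing about shared function follows from it.

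**Figure D4:**
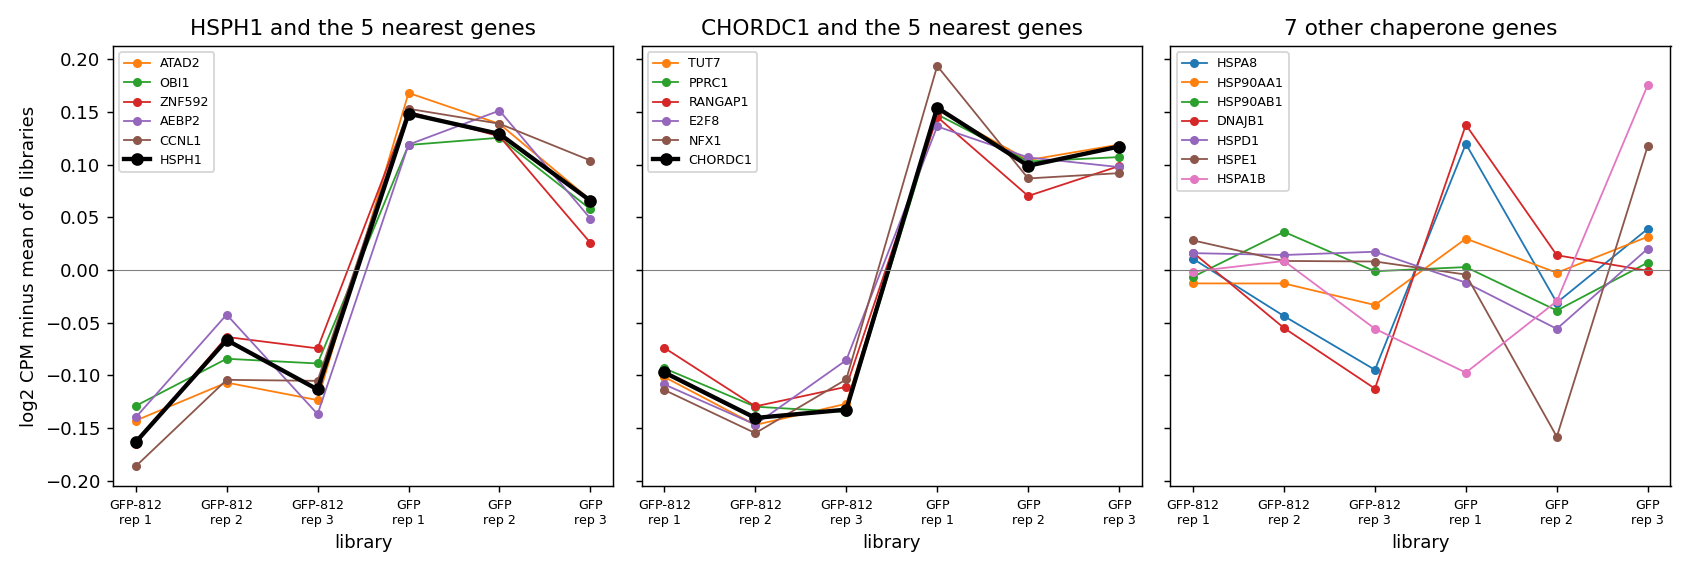
Log2 CPM centred on each gene's mean (vertical axis) over the 6 libraries (horizontal axis), for HSPH1 with its 5 nearest genes, CHORDC1 with its 5 nearest genes, and 7 other chaperone genes (HSPA1A, from 44 to 72 counts, is left out). Lines join the values of 1 gene and imply no order of libraries; HSPH1 and CHORDC1 lie below 0 in all GFP-812 libraries and above 0 in all GFP libraries.

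The 6 lists of heat shock regulators, other HSF1 targets and co-chaperones held 87 tested genes. Of these, edgeR called 4 lower (4.60%, beside 2.67% of all genes) and 1 higher (beside 1.18% of all genes). The count called higher was 6 with GFP replicate 3 left out, beside 507 over all genes. It was 0 with GFP-812 replicate 1 or 2 left out (136 or 62 over all genes). It was also 0 with GFP replicate 1 or 2 left out (78 or 109 over all genes). The count called lower was 2 with GFP-812 replicate 2 or GFP replicate 1 left out, beside 147 or 185 over all genes. The median log2 fold change of the 87 was -0.0022. The factors themselves were not called. HSF1 was at 4.61, 4.71 and 4.41 FPKM in the GFP-812 libraries and at 5.17, 5.03 and 5.01 FPKM in the GFP libraries, so that its groups did not overlap, with a log2 fold change of -0.14 (SE 0.0837, adjusted p = 0.438 by edgeR). HSF2, a related factor that can pair with HSF1, had overlapping groups and a log2 fold change of -0.03 (SE 0.0509, adjusted p = 0.845 by edgeR).

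Among 12 heat shock factors and regulators, 3 fell (25%, beside 2.67% of all genes), 1 rose (beside 1.18% of all genes) and 8 were not called. The list was chosen with earlier results of these data known. EP300, an acetyltransferase known to act on HSF1, fell from 10.4 ± 0.975 to 8.29 ± 0.146 FPKM (SD, n = 3 each), a change in log2 of -0.31 (SE 0.0532, edgeR adjusted p = 0.000109). PPP2R2A, a B55 subunit that directs phosphatase 2A to its substrates, fell from 22.4 ± 0.780 to 18.15 ± 0.750 FPKM (SD, n = 3 each), a change in log2 of -0.29 (SE 0.0445, edgeR adjusted p = 1.19e-05). SIRT1, a deacetylase of HSF1, fell by 0.19 on the log2 scale (SE 0.0582, edgeR adjusted p = 0.0483), with overlapping groups. It lost its call in 11 of 19 alternatives, among them leaving out GFP-812 replicate 1 or 2 (adjusted p = 0.185 or 0.290) and GFP replicate 1 or 2 (0.372 or 0.0794). IER5, which brings B55 phosphatase to HSF1 and is itself an HSF1 target, rose from 12.05 ± 0.176 to 14.0 ± 0.667 FPKM (SD, n = 3 each), a change in log2 of 0.23 (SE 0.0617, edgeR adjusted p = 0.0196). With GFP-812 replicate 1 or 2 left out the IER5 adjusted p was 0.162 or 0.0767, and with GFP replicate 1 or 2 left out it was 0.0739 or 0.0694.

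Among 25 tested HSF1 targets outside the 10, 1 fell (4%, beside 2.67% of all genes) and 1, IER5, rose (4%, beside 1.18% of all genes). With 1 gene in each direction, nothing is drawn from these shares. The gene that fell was DNAJA1, a J-domain partner of HSP70. It was at 156.5, 153 and 147 FPKM in the GFP-812 libraries and at 180.04, 163 and 168 FPKM in the GFP libraries, with no overlap of the groups. The log2 fold change of DNAJA1 was -0.15 (SE 0.0400, edgeR adjusted p = 0.0185). Its adjusted p became 0.129 or 0.230 when GFP-812 replicate 2 or 3 was left out, and 0.274 when GFP replicate 1 was.

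The remaining co-chaperone lists held no called gene, beside 2.67% of all genes called lower and 1.18% called higher. With shares this small and lists this short, nothing is drawn from the absence. Of 23 tested HSP90 family members and co-chaperones, where CHORDC1 belongs by function, the smallest p were those of AHSA2P (log2 fold change 0.20, edgeR adjusted p = 0.139) and NUDCD2 (0.14, adjusted p = 0.213). Of 23 tested HSP70 family members and nucleotide exchange factors, where HSPH1 belongs, they were those of BAG5 (-0.13, adjusted p = 0.183) and HSPBP1 (0.20, adjusted p = 0.395). Of 17 genes of mitochondrial folding and proteolysis they were YME1L1 (-0.12, edgeR adjusted p = 0.104) and LONP1 (0.14, adjusted p = 0.108). Of 3 tested small heat shock proteins they were HSPB8 (-0.39, edgeR adjusted p = 0.0782) and HSPB1 (0.18, adjusted p = 0.392). Whether HSPH1 and CHORDC1 differ in response from these lists was not tested.

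**Figure D5:**
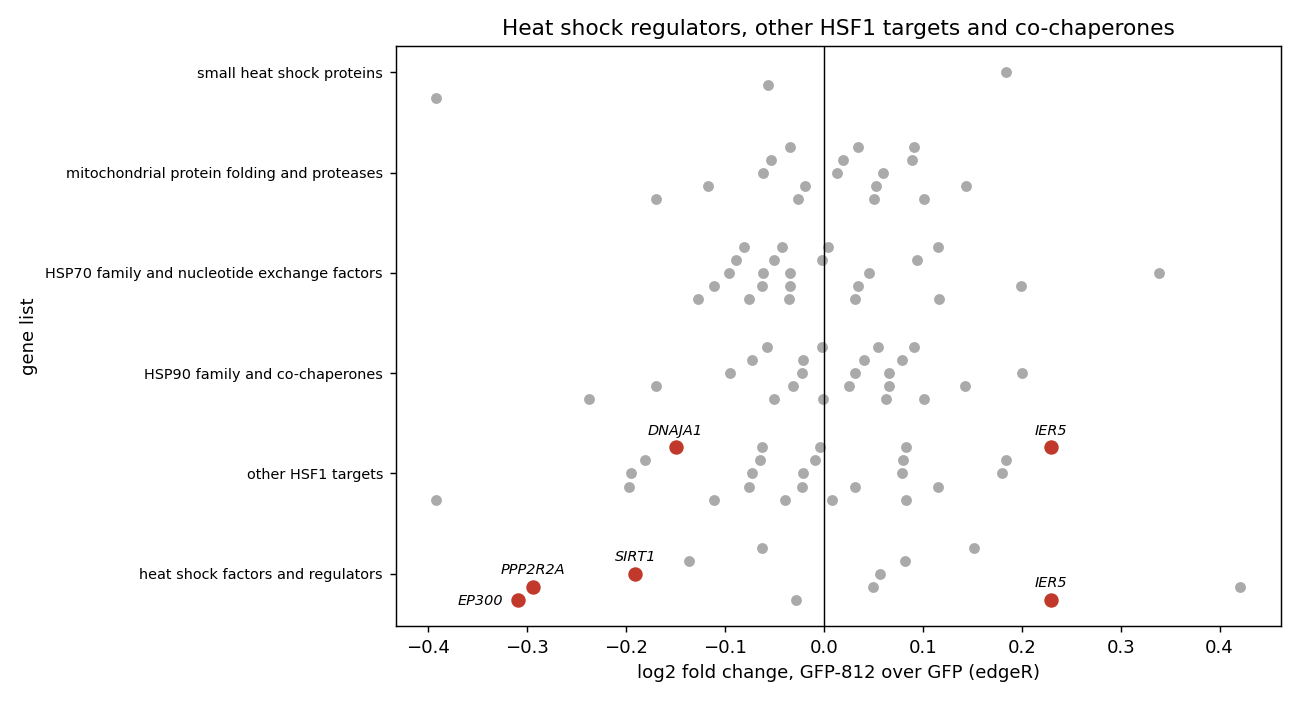
Log2 fold change of GFP-812 over GFP from edgeR (horizontal axis) for the tested genes of 6 lists, the 10 chaperone genes excluded (vertical axis, 1 row of points per list). Called genes are coloured and named, and IER5 stands in 2 lists; 4 genes lie below 0 and 1 above among those called.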

How the data were processed

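RNA of 6 libraries of 293T cells, 3 per group by sample title, was sequenced after poly(A) selection, per the labels' protocols. The submitters' processing notes name hg38 as the build, HISAT2 2.2.1, HTSeq 0.6.1, FastQC 0.10.1 and cutadapt 1.9.1. Annotation release, use of strand and treatment of reads with several matches were not given in the sources used here. The authors deposited raw counts and FPKM per gene and library in 1 table. The FPKM equal the count divided by exonic size and library total in 100% of values, within 0.0051.

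Counts of 16834 genes were tested with edgeR 4.0.16 in R 4.3.3 (filterByExpr, TMM, quasi-likelihood test, 2-sided, Benjamini-Hochberg over all genes tested, threshold 0.05). Standard errors were taken from the F statistic. Within-group values use log2 CPM with a prior count of 2. Alternatives used DESeq2 1.42.0, limma 3.58.1 (voom, and log2(FPKM + 1) or log2(FPKM + 0.1)), other scalings and filters, protein-coding genes alone, NEK1 left out, the replicate number as a block, and each library left out. The fit was tested on simulated data. Libraries of 1 group differed by 2.13 to 4.03 in chi-square per gene, above the 1 of sampling noise.

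The 10 genes and all lists were chosen with earlier results of these data known. Genes named are NEK1, the 10, HSF1, HSF2, every called gene of a list (or the 2 of smallest p where none was called), the 5 nearest patterns to HSPH1 and to CHORDC1, and pseudogenes or read-through genes with at least 1% of the parent's counts. Promoter sequences are from RefSeq (GRCh38.p14), and transcript overlap and shared windows from GENCODE v29, whose release may differ from the authors'.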

Additional observations from a re-analysis of the deposited data

How the results depend on the processing

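HSPH1 ranged from -0.25 to -0.21 and CHORDC1 from -0.26 to -0.23 in log2 fold change over 19 alternatives, and each was called in 16 of them, including all 6 that leave out a library. These calls reuse the libraries by which the genes were chosen and are no support for the difference. The other 3 alternatives were limma on log2(FPKM + 1), on log2(FPKM + 0.1) and without a filter. These called 1, 1 and 20 genes lower and 3, 3 and 11 higher over all genes, and none of the 10 chaperone genes (0, 0 and 0) or of the pathway genes (0, 0 and 0 lower, 0, 0 and 0 higher), while 1959, 1916 and 3167 genes had an unadjusted p under 0.05. DESeq2 called 119 genes higher, and voom called 2 pathway genes higher. Leaving out 1 library gave 147 to 810 genes called lower, 62 to 507 called higher, 2 to 3 of the 10 called lower, and 2 to 5 pathway genes lower and 0 to 6 higher; the cause was not tested. None of the 10 was called higher in any alternative. Of uncalled values, HSPA1A turned to -0.04 without GFP replicate 1, HSPA1B to 0.05 without GFP replicate 3, HSPE1 to -0.04 without GFP replicate 2 and HSF2 to 0.01 without GFP replicate 1.

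With the replicate number as a block, 511 genes were called lower and 266 higher, with 2 of the 10 chaperone genes lower, and 4 pathway genes lower and 1 higher. Deviations of same-numbered libraries correlated at 0.0318, -0.0102 and 0.0061, so the numbers were not taken as pairs, and not every library correlated best with its own number. Depth limits HSPA1A most, at 44 to 72 counts per library.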

Other observations

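In replicate 1 of each group 8 of the 10 chaperone genes lay above their group mean, and the share over all genes was not counted. Their median log2 CPM deviation was small, 0.0123 in GFP-812 and 0.0115 in GFP replicate 1, beside 0.0005 and 0.0041 over all genes tested. HSPH1 (-0.0490) and HSP90AB1 (-0.0160) lay below the mean in GFP-812 replicate 1, and HSPA1A (-0.392) and HSPA1B (-0.114) in GFP replicate 1. HSPA8, DNAJB1 and CHORDC1 had their highest library of each group in replicate 1. In log2 CPM from the group mean, HSPA8 was at 0.0532, -0.0011 and -0.0521 in GFP-812 replicates 1, 2 and 3, and DNAJB1 at 0.0669, -0.0047 and -0.0622. In GFP replicates 1, 2 and 3, HSPA8 was at 0.0771, -0.0736 and -0.0035 and DNAJB1 at 0.0874, -0.0363 and -0.0511. For CHORDC1 the highest deviations were 0.0262 and 0.0306, in GFP-812 and GFP replicate 1. These genes were picked out after their values were seen, and no test was run on them.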
